A study of Mus musculus with 51 samples.

Results

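Receptors for glutamate, GABA and glycine were followed through 51 RNA-seq libraries of sorted dopaminergic and serotonergic neurons from adult mice. The 42 subunit genes were listed by name from the receptor families, with earlier results of these data known, and all 42 were found among the 24564 genes of the table. They comprised 4 AMPA, 5 kainate, 1 delta, 7 NMDA and 7 metabotropic glutamate receptor genes, 12 GABA-A and 2 GABA-B receptor genes, and 4 glycine receptor genes. Subunits outside this list were not analysed here.

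The study addressed gene expression in these neurons with and without a working Polycomb repressive complex 2 (PRC2), which methylates lysine 27 of histone H3 and of which Eed is a core subunit. Midbrain dopaminergic (mDA) neurons came from the strain labelled DatCreEed and serotonergic (5HT) neurons from the strain labelled SertCreEed, both dissected as adult midbrain, sorted by FACS and sequenced with Smart-seq2, which reads whole transcripts from little RNA. Each library carries its own animal number and is labelled wt or PRC2 mutant. For mDA there were 9 wt and 10 mutants aged 4 months, and 8 of each genotype aged 8 months. For 5HT there were 4 wt and 4 mutants at each of the same ages. The strain names refer to Cre under the dopamine transporter gene (Dat, Slc6a3) or the serotonin transporter gene (Sert, Slc6a4). Whether wt animals carry Cre or an altered Eed allele is not given in the sources used here.

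Total counts per library ran from 1644460 to 12250492, and levels are given as CPM, reads of a gene relative to all reads of its library after TMM adjustment over the 51 libraries. A floor of 3 counts equalled between 0.245 and 1.82 CPM. The labelled cell types carried their markers in wt: Slc6a3 averaged 2548 to 2816 CPM in the mDA wt groups and 9.79 to 20.8 CPM in 5HT wt, and Tph2 averaged 2498 to 2726 CPM in 5HT wt and 5.85 to 7.15 CPM in mDA wt. Eed, the targeted gene, was not lower in mutants. Its level was 23.6 ± 9.0 CPM (SD, n = 10) against 14.1 ± 6.3 (n = 9) in mDA at 4 months, 22.5 ± 9.4 against 13.4 ± 3.2 (n = 8 and 8) at 8 months, 24.9 ± 3.8 against 10.2 ± 3.1 (n = 4 and 4) in 5HT at 4 months and 17.7 ± 5.6 against 13.5 ± 2.2 (n = 4 and 4) at 8 months, and none of these was called (edgeR adjusted p from 0.114 to 0.9997). Counts over the whole gene do not show which exons are missing, so they do not check the genotype labels. The 6 female mDA mutants at 4 months stood apart, with 1654667 to 3017630 counts against 4094640 to 4587312 in the 4 males of that group.

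Glutamate opens AMPA, kainate and NMDA receptors, cation channels built from 4 subunits, and also acts through metabotropic receptors that couple to G proteins. GABA and glycine open chloride channels built from 5 subunits (GABA-A and glycine receptors), and GABA-B is a G protein coupled receptor that needs both of its subunits. In dopaminergic neurons NMDA receptors are known to promote burst firing, and GABA input restrains the firing of both cell types.

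Between wt cell types, the receptor genes differed often. Among the 41 members with enough counts to test, 27 (65.9%) passed an edgeR quasi-likelihood test at a Benjamini-Hochberg adjusted p under 0.05 (called below), 17 higher in mDA and 10 higher in 5HT. Of all 16178 genes tested 21.7% were called, 11.3% higher in mDA and 10.4% higher in 5HT. Their median log2 fold change was 0.43 and that of all genes tested 0.03. The libraries of the cell types did not overlap for 8 members, 7 higher in mDA and 1 lower, beside 3.08% of all genes in either direction. Markers of other cells moved too. Endothelial and mural markers summed to 9.98 to 61.8 CPM in wt mDA and 31.2 to 113.7 CPM in wt 5HT (4 of 11 called lower in mDA), and oligodendrocyte markers to 489.5 to 1693 and 699.6 to 1836 CPM (5 of 15 lower). Of astrocyte markers 1 was called higher and 2 lower out of 15, of oligodendrocyte precursor markers 3 of 10 higher, and of microglia markers 1 of 11 lower. Their part in the receptor values was not tested. Cell type, mouse line, animals and sequencing set cannot be told apart in this comparison, whose fit had no term for set. Nor can fewer cells of a type and less RNA per cell be told apart in any comparison of such bulk samples.

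AMPA receptors carry most fast excitation. Gria2 (GluA2, the subunit that makes the channel impermeable to calcium) was high in both cell types, though it too was called higher in mDA. It averaged 1154 ± 98.7 CPM in wt mDA (n = 17) and 940.4 ± 89.8 CPM in wt 5HT (n = 8). The other AMPA subunits differed more. Gria3 (GluA3) in wt mDA ran from 187.2 CPM over a median of 269.9 to 348 CPM in 17 libraries, and in wt 5HT from 6.17 over 19.95 to 40.0 CPM in 8. Every mDA library lay far above every 5HT library, and the log2 fold change was 3.89 (edgeR adjusted p = 1.65e-17). Gria4 (GluA4) went the other way, from 105 over 173 to 233 CPM in mDA and from 404 over 540.5 to 586 CPM in 5HT. Again the groups did not overlap, with a log2 fold change of -1.55 (adjusted p = 1.07e-11). Gria1 (GluA1) ran from 147.3 over 189 to 232 CPM in mDA and from 78.9 over 100 to 128 CPM in 5HT, without overlap, a log2 fold change of 0.93 (adjusted p = 4.74e-08).

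Per kilobase of transcript, so that levels can be set side by side between genes, Gria2 led in mDA at 139.8 ± 11.95 CPM per kb (n = 17), followed by Gria3 at 60.0 ± 11.2, Gria4 at 39.3 ± 9.0 and Gria1 at 35.5 ± 4.1. The last 2 of these lay within each other's spread. In 5HT Gria4 at 115.6 ± 15.8 CPM per kb and Gria2 at 113.9 ± 10.9 (n = 8) did not differ beyond their spread, Gria1 followed at 18.5 ± 2.8 and Gria3 at 4.42 ± 2.21. As a share of the summed AMPA subunit RNA per kb in each library, Gria3 averaged 21.75% ± 2.7 in wt mDA and 1.765% ± 0.86 in wt 5HT, and Gria4 14.2% ± 2.3 and 45.7% ± 3.6.

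**Figure D1:**
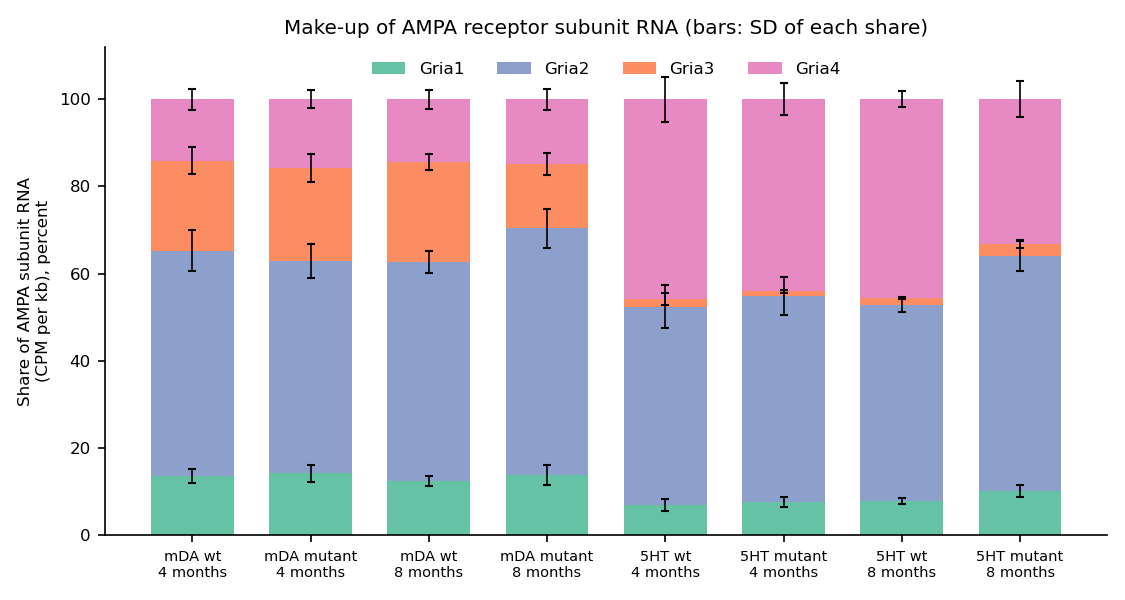
Share of each AMPA receptor subunit in the summed AMPA subunit RNA (CPM per kb of transcript, percent) in the 8 groups. Stacked bars are group means and error bars are the SD of each share over libraries. The Gria3 layer averages 23.0% in mDA wt and 14.8% in mDA mutants at 8 months, and 1.03% to 2.755% in the 5HT groups.

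Kainate receptor subunits split in the same manner between the low-affinity subunits. Grik3 (GluK3) ran from 109.9 over 153 to 180.5 CPM in wt mDA and from 2.27 over 6.51 to 26.8 CPM in wt 5HT. The groups lay well apart, a log2 fold change of 3.76 (edgeR adjusted p = 1.46e-11). Grik2 (GluK2) ran from 38.8 over 57.3 to 111 CPM in mDA and from 105 over 130.1 to 159 CPM in 5HT. Here a single mDA library reached into the 5HT range, and the log2 fold change was -1.15 (adjusted p = 1.66e-07). Per kb, Grik3 at 16.7 ± 2.1 and Grik5 (GluK5, a high-affinity subunit) at 16.04 ± 6.4 led in mDA without differing beyond their spread, and Grik2 led in 5HT at 20.9 ± 2.6. Grik1, Grik4 and Grik5 were not called, with log2 fold changes of 0.71, -0.33 and 0.54. Leaving out the 5HT library S369, in which Grik5 stood at 113 CPM, the Grik5 difference was called at 0.95 (adjusted p = 0.00139). Grik1 was called without S367 (1.24, adjusted p = 0.00191) and without S369 (0.51, adjusted p = 0.0482). The delta receptor gene Grid1 (GluD1, a synapse organiser) was not called either, at 28.7 ± 9.2 CPM in mDA and 32.2 ± 7.4 in 5HT.

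NMDA receptors need 2 GluN1 subunits, from Grin1, and partners that set their kinetics. Grin1 was alike in level, at 32.0 ± 5.1 CPM per kb in mDA and 28.8 ± 4.3 in 5HT, with a log2 fold change of 0.09 (SE 0.11) that was not called. All 4 NMDA genes called were partners and were higher in mDA. The change was 4.46 for Grin2c (GluN2C, which gives channels with weak magnesium block), 1.76 for Grin3a, 1.40 for Grin2a and 0.996 for Grin2b on the log2 scale. Grin2c ran from 6.33 over 20 to 45.9 CPM in mDA and from 0 over 0.869 to 4.16 CPM in 5HT, where it had 57 counts in all 8 libraries together. No library of either type entered the other's range (edgeR adjusted p = 1.04e-11). Per kb Grin2b, at 22.4 ± 4.6 in mDA and 11.1 ± 4.0 in 5HT, was the highest GluN2 gene in both. Grin2d (1.24) was not called by edgeR but was by DESeq2 (1.27, adjusted p = 0.0131), and by edgeR without C241, S382 or S369 (adjusted p = 0.0440, 0.0393 and 0.0467).

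Metabotropic glutamate receptor genes were called in both directions, 3 higher in mDA and 2 higher in 5HT. Grm5 (mGluR5, coupled to phospholipase C) ran from 91.7 over 134 to 164 CPM in mDA and from 17.2 over 35.5 to 63.2 CPM in 5HT, without overlap and with a log2 fold change of 1.72 (edgeR adjusted p = 3.57e-10). The presynaptic receptor gene Grm7 ran from 23.1 over 37.9 to 63.3 CPM in mDA and from 62.3 over 89.8 to 126 CPM in 5HT. The ranges met at their ends, and the log2 fold change was -1.25 (adjusted p = 6.24e-07). Grm5 was thus the highest of the 7 per kb in mDA (20.1 ± 3.1) and Grm7 in 5HT (21.4 ± 5.0). Grm8, another presynaptic receptor gene, was also higher in 5HT (-1.14), Grm2 (1.47) and Grm4 (1.23) were higher in mDA, and Grm3 and Grm6 were not called.

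GABA-A receptor subunits were called in both directions, 3 higher in mDA and 4 higher in 5HT out of 11 tested. Gabrb2 was the highest per kb in both types, at 31.7 ± 4.5 in mDA and 16.1 ± 4.6 in 5HT, and rose in mDA without overlap (from 98.6 over 123 to 159.7 CPM against 30.4 over 66.5 to 93.9 CPM, log2 fold change 0.99). Gabrb1, another beta subunit gene, ran from 36.4 over 57.1 to 72.1 CPM in mDA and from 47.7 over 107.5 to 160.8 CPM in 5HT. All 5HT libraries but S369 lay above the whole mDA range, and the log2 fold change was -0.96 (edgeR adjusted p = 3.59e-06). Gabre and Gabrq, the epsilon and theta subunits known from monoaminergic nuclei, were higher in 5HT (-2.53 and -0.75). Of the alpha subunits, Gabra4 was higher in mDA (1.52), Gabra2 was higher in 5HT (-0.57), and Gabra3 and Gabra5 were not called, though Gabra3 was without S367 (0.68, adjusted p = 0.0429). Gabra6, a subunit of cerebellar granule cells, had too few counts to test: it was at 0 to 4.41 CPM in wt mDA and at 0 to 0.35 CPM in 7 wt 5HT libraries, and at 51.6 CPM in the other, S367. In that library the cerebellar granule cell markers summed to 205 CPM against at most 52.4 CPM in the other 3 of its group. That list includes Gabra6 itself, so the sum contains the 51.6 CPM. The part of such cells in the values of S367 was not tested.

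The GABA-A genes lie in clusters, and neighbours did not move together. In the chromosome 5 cluster (GRCm38.p6 coordinates from RefSeq), Gabrg1 (70751047 to 70842617) was higher in mDA by 0.77, Gabra2 (70958392 to 71095849) lower by the -0.57 above, Gabra4 (71569734 to 71658308) higher and Gabrb1 (71657921 to 72149572) lower. The annotated spans of Gabra4 and Gabrb1 overlap at their ends, and no source used here says whether the counting used strand, which leaves the assignment of reads in that stretch uncertain. In the X chromosome cluster of Gabre (72256926 to 72274828), Gabra3 (72432676 to 72656919) and Gabrq (72825163 to 72842607), the outer genes were higher in 5HT and the middle one was not called.

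Both GABA-B subunits were higher in mDA, Gabbr1 by 0.305 and Gabbr2 by 1.03 on the log2 scale. Gabbr1, which binds GABA, was the second highest member per kb in mDA (99.1 ± 14.5) and the third highest in 5HT (78.5 ± 8.6), while Gabbr2, which couples to the G protein, stood at 8.81 ± 2.46 and 4.12 ± 1.41. Among glycine receptors the beta subunit gene Glrb, which anchors the receptor to gephyrin, led in both types at 60.5 ± 16.3 and 48.7 ± 13.0 CPM per kb and was not called (0.33). The alpha subunits split. Glra3 ran from 13.7 over 25.1 to 35.3 CPM in mDA and from 1.95 over 5.50 to 10.4 CPM in 5HT, without overlap (log2 fold change 2.04, edgeR adjusted p = 1.69e-07). Glra2 ran from 17.5 over 25.6 to 43.2 CPM in mDA and from 24.7 over 75.1 to 83.3 CPM in 5HT, where all libraries but 1 lay above mDA (-1.34, adjusted p = 1.04e-06). Glra1 was higher in 5HT as well (-1.61).

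**Figure D2:**
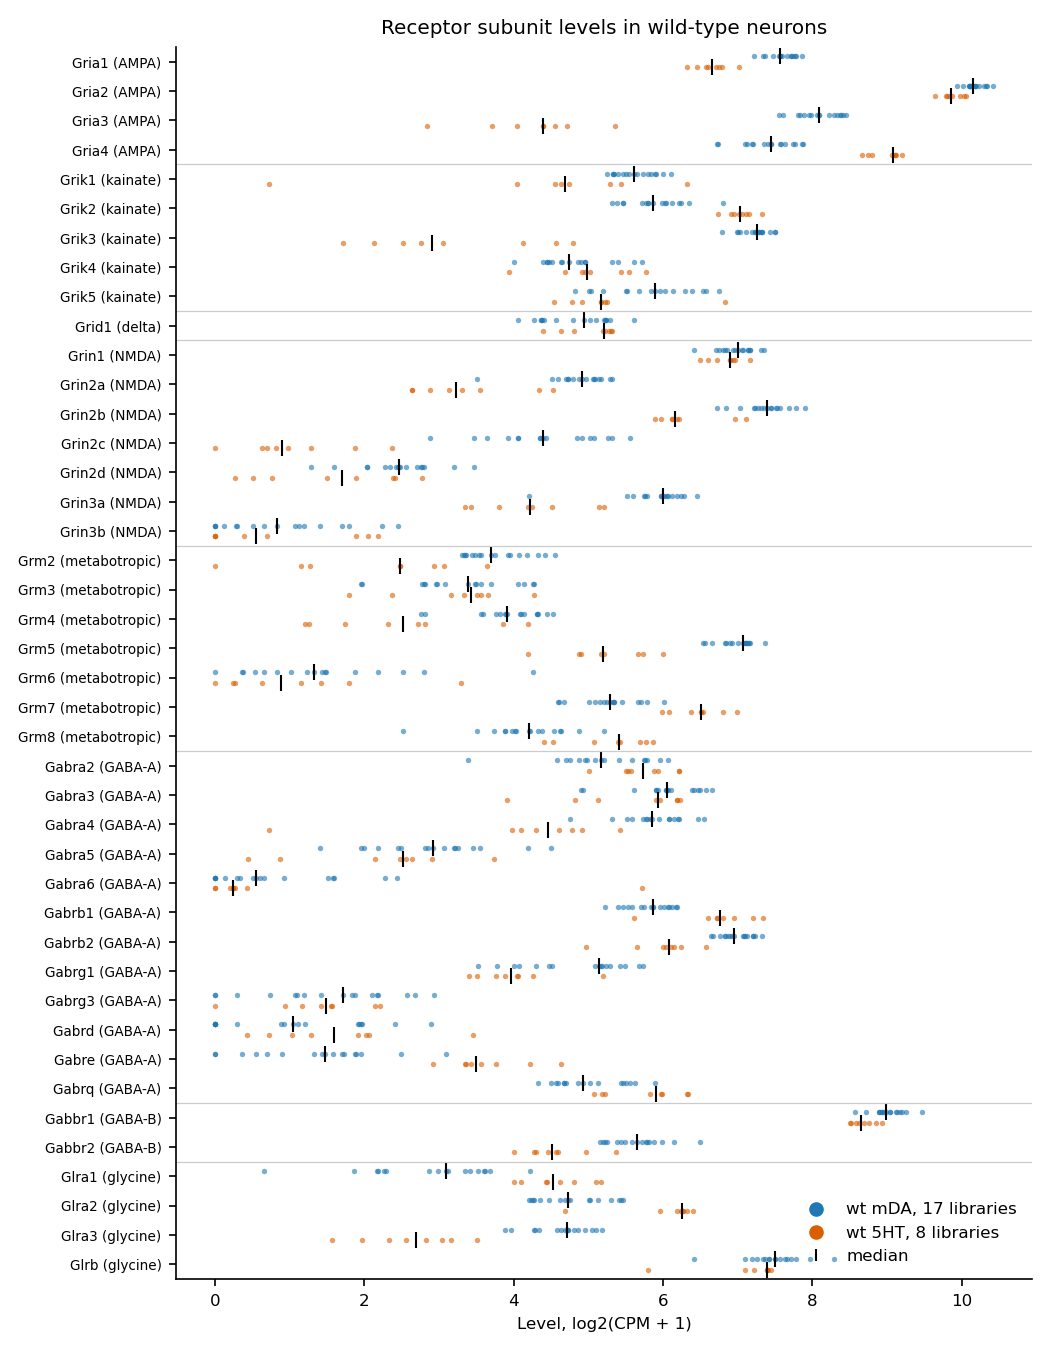
Levels of the 42 subunit genes in wt libraries as log2(CPM + 1), 17 mDA libraries in blue and 8 5HT libraries in orange, with a black tick at each median and grey lines between families. Gria3, Grik3, Grin2c and Grm5 stand higher in mDA without overlap and Gria4 stands higher in 5HT. The single 5HT point of Gabra6 far from the rest is library S367.

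RefSeq promoter windows (GRCm38.p6, 250 bases before to 50 after a start) were on hand for 31 of the 42 genes, in 38 windows. Of these 16 (42.1%) were rich in CpG, with more than 50% G or C and an observed to expected CpG ratio over 0.6, beside 33.3% of 32851 windows of all genes. PRC2 is known to be recruited at CpG-rich promoters in mammals, and the study's processed table holds no binding data. The upstream 250 bases are shown for 3 of the genes called in some comparison, picked by hand, for which this stretch ends where the annotated gene begins. Gria3 had no window. CG dinucleotides are in capitals, and each is written 5′ to 3′ on the strand of its gene. Gria4 lies on the minus strand (chr9:4796235-4796484), Glra3 on the plus strand (chr8:55940168-55940417) and Gabra3 on the minus strand (chrX:72656920-72657169).
Gria4: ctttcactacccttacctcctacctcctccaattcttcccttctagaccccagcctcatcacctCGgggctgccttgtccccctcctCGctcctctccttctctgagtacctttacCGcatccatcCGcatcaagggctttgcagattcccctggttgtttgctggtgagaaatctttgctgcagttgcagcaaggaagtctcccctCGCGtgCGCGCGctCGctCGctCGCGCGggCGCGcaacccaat
Glra3: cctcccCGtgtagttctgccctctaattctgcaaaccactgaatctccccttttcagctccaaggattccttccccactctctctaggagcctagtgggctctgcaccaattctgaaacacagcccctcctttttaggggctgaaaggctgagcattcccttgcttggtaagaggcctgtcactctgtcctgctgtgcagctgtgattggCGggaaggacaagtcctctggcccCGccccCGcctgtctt
Gabra3: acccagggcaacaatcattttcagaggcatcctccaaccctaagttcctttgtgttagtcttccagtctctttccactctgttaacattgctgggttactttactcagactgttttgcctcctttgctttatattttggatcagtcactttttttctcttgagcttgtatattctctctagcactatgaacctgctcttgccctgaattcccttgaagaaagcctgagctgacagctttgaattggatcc
They hold 16, 4 and 0 CG dinucleotides at 58.8%, 56.0% and 42.4% G or C.

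Age alone moved no member past the threshold in wt neurons. In wt mDA, 0 of 37 members tested were called between 8 and 4 months (6 had an unadjusted p under 0.05), and 0 of all 13645 genes tested (0%). In wt 5HT, 0 of 41 were called (4 unadjusted), and 0 of 15633 genes (0%). The share of all genes at an unadjusted p under 0.05 is not given, here or below. Unadjusted counts are therefore not read as results about receptors. The smallest unadjusted p in wt mDA belonged to Grin2c, with 16.8 ± 7.6 CPM (n = 9) at 4 months and 30.6 ± 10.3 (n = 8) at 8 months, a log2 difference of 0.87 (edgeR adjusted p = 0.184).

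In mDA neurons at 4 months, no receptor gene was called between mutants and wt. The count was 0 of 41, where 1.17% of 15425 genes were called by edgeR, and no member's libraries separated by genotype (0.0778% of all genes did). An unadjusted p under 0.05 was found for 9 members, a count without the share of all genes at that threshold beside it. DESeq2 called Grin3b (2.14, adjusted p = 0.0184; GluN3B, 0.619 to 11.4 CPM in mutants and 0 to 4.44 CPM in wt). The median member moved by -0.03 and the median gene by -0.01. The mutants of this age were not one cloud, and the female libraries, which were also the shallow ones, stood apart from the males for the members split by sex. Grik5 was at 90.6 to 152 CPM in the 6 females and at 27.5 to 47.2 CPM in the 4 males. Grin2c was at 35.3 to 118 CPM in the females and 7.94 to 29.7 CPM in the males, Gria3 at 268 to 352 and 133 to 249.1 CPM, and Gabra3 at 15.0 to 47.6 and 60.6 to 108 CPM. The sexes did not overlap for any of these 4 genes, whereas in wt of the same age they did for each. Only these 4 were split by sex, so the share of members or of all genes that separate is not given. Gria3, Grik5 and Gabra3 were split because they were called at 8 months or in the difference between ages below, and Grin2c was added by hand. The calls for the difference used these same libraries, so the separation by sex is not independent of that choice. Sex, depth and sequencing set were linked here, because the 4 mutants of set1 were all female and its 3 wt all male, so they cannot be told apart within that set. Within set1, 7 members were called, and within set2, 0. The share of all genes called in these fits is not given, so the counts are not read as a result about receptors.

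**Figure D3:**
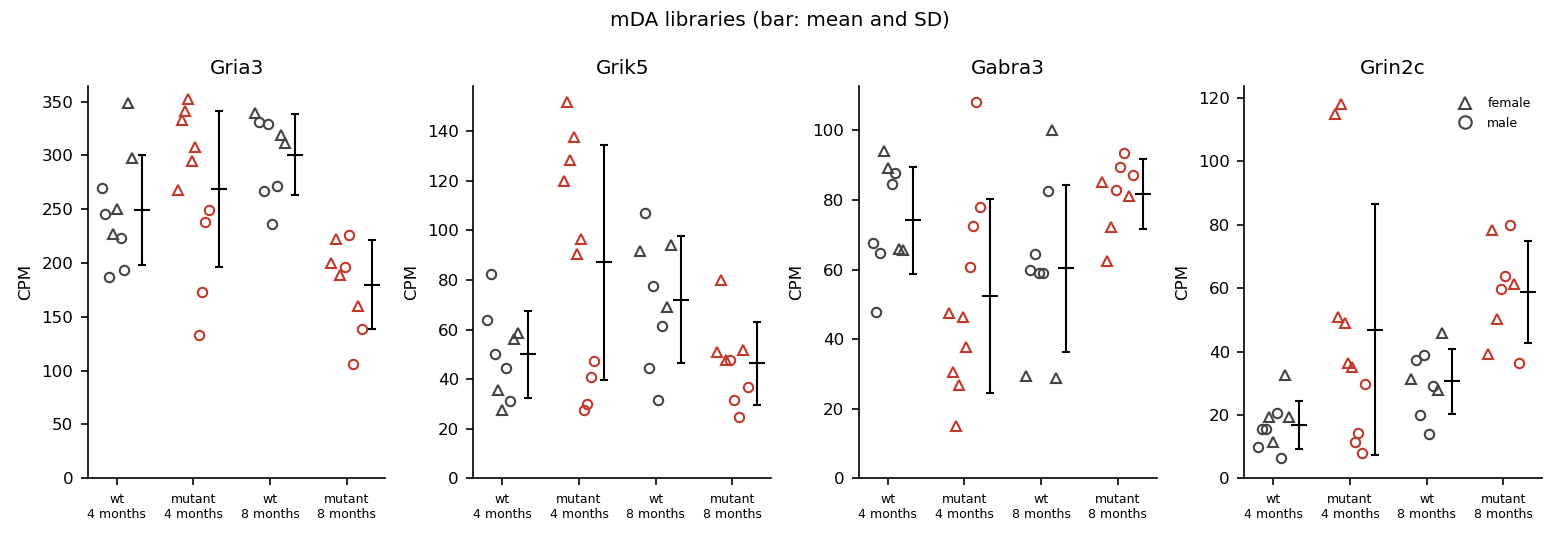
CPM of Gria3, Grik5, Gabra3 and Grin2c in each mDA library, by genotype and age. Triangles are female and circles male, wt in grey and mutants in red, with the mean and SD of each group beside the points. The 8-month mutants lie below wt for Gria3, and the 4-month mutants split by sex for all 4 genes.

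At 8 months, mutant mDA neurons held less Gria3. It ran from 106 over a median of 193 to 226.4 CPM in 8 mutants and from 236 over 315 to 339 CPM in 8 wt. Every mutant lay below every wt library, and Gria3 was the 1 member without overlap, beside 1.28% of all genes in either direction. The log2 fold change was -0.83 (SE 0.14, edgeR adjusted p = 0.000133), from 301 ± 38 CPM in wt to 179.97 ± 41.6 in mutants. Within sequencing set1 it was -0.75 (adjusted p = 0.00222, 4 against 4) and within set2 -0.70 (adjusted p = 0.468, 4 against 2). In the 35 fits that each left out 1 library it was called every time, from -0.96 to -0.78.

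Among members, 2 of 41 (4.88%) were called at this age, both lower, beside 4.32% of all genes in either direction and 1.88% lower. The other was Grik5, the high-affinity kainate subunit, at 24.9 over 47.6 to 79.8 CPM in mutants and 31.7 over 73.3 to 106.95 CPM in wt. These ranges overlapped over most of their length, and the change of -0.73 (SE 0.22, edgeR adjusted p = 0.0464) was near the threshold. It was not called within set1 (-0.70, adjusted p = 0.141), within set2 (adjusted p = 0.762), without the sex term (-0.46, adjusted p = 0.470), without the set term (adjusted p = 0.0799) or in 15 of the 35 fits without 1 library (highest adjusted p 0.163). Another 11 members had an unadjusted p under 0.05 alone, among them Gabra3 (81.8 ± 9.98 CPM in mutants, 60.4 ± 24.0 in wt, 0.61, adjusted p = 0.0920, but 0.80 and adjusted p = 0.0476 within set1) and Grik4 (36.8 ± 12.6 and 25.3 ± 7.5 CPM, 0.67, adjusted p = 0.0604). DESeq2 called 4 members, Gria3 and Grik5 lower and Grik4 (0.66) and Grin3b (2.21) higher. Grin3b was low, at 1.27 to 5.40 CPM in mutants and 0 to 2.25 CPM in wt. The share of all genes that DESeq2 called is not given, so its count is not read as a result about receptors.

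The AMPA make-up shifted with Gria3. Its share of AMPA subunit RNA per kb was 10.4% to 18.9% in mutants and 19.2% to 25.3% in wt, means of 14.8% ± 2.5 and 23.0% ± 1.9 (n = 8 and 8). This restates the Gria3 call in the same libraries, so no test is given. Within set1 the means were 15.6% and 22.7%, and within set2 14.1% and 22.6%. Gria1, Gria2 and Gria4 were not called, with log2 fold changes of 0.01, -0.00 and -0.16. At 4 months the Gria3 share was 21.5% ± 3.3 in mutants (n = 10) and 20.65% ± 3.0 in wt (n = 9).

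Inhibitory receptors were not called in mDA at 8 months. The estimate was positive for 10 of 11 GABA-A genes tested, with a family median of 0.43 beside 0.02 for all genes. The share of all genes with a positive estimate is not given, so that count is not read as a result about these receptors. Glycine receptors had a median of 0.07, and Glrb in particular stayed at 203 ± 30 CPM in mutants and 179 ± 65 in wt (0.06, not called). Markers of other cells moved in these libraries. The GABA neuron markers summed to 645 to 976 CPM in mutants and 274 to 557 CPM in wt, with 5 of 8 called higher, and dopaminergic markers to 3630 ± 421 and 8237 ± 1381 CPM, with 8 of 10 called lower. The astrocyte sum was 670.4 to 3572 CPM in mutants (3572 in D176, at most 1766 in the others) and 464 to 968 CPM in wt, with 3 of 15 called higher. The endothelial and mural sum was 9.25 to 1073 CPM in mutants and 9.98 to 61.8 CPM in wt, with 2 of 11 called higher. Immediate early genes, which neurons switch on with activity or stress, summed to 308 ± 55 CPM in mutants (lowest 234) and 125.5 ± 32.65 CPM in wt (highest 169.6), with 5 of 12 tested called higher. No marker of these lists was at 0 in all libraries of either group. Their part in the receptor values was not tested.

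The genotype effect differed between 8 and 4 months in mDA for 3 of 41 members (7.32%), beside 6.11% of all genes. The difference was -0.88 (SE 0.18, edgeR adjusted p = 0.00386) for Gria3, -1.23 (SE 0.28, adjusted p = 0.00658) for Grik5 and 1.08 (SE 0.27, adjusted p = 0.0123) for Gabra3, whose effects at 4 months were 0.05, 0.50 and -0.47. Without the 6 shallow female mutants of 4 months the differences were -0.32, -0.42 and 0.76 (adjusted p = 0.859, 0.902 and 0.675) and none was called. None was called without the sex term (adjusted p = 0.0541, 0.0897 and 0.117) or without the 4 set1 mutants of 4 months (adjusted p = 0.0857, 0.0809 and 0.0986) either, and Gabra3 was not called without the set term (adjusted p = 0.0622).

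**Figure D4:**
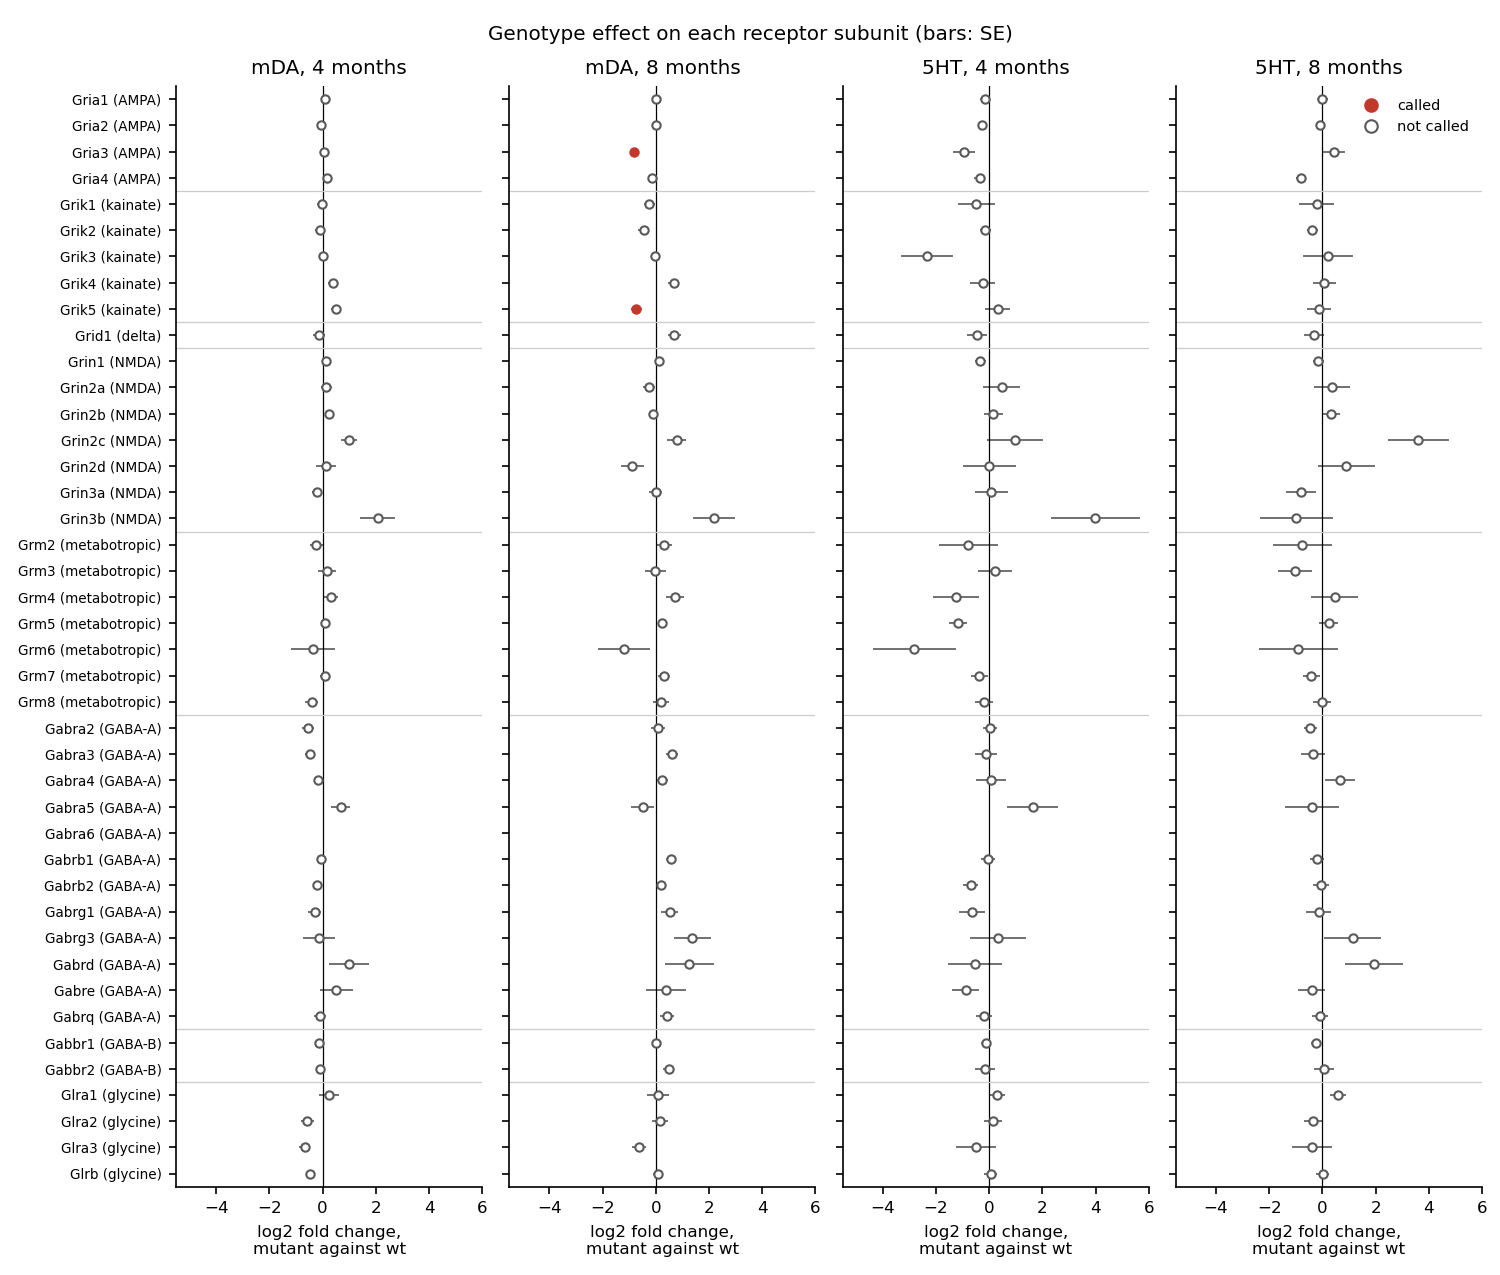
Log2 fold change, mutant against wt, of the tested subunit genes in mDA and 5HT neurons at 4 and 8 months, with SE bars from edgeR. Red filled points are called at an adjusted p under 0.05. Gria3 (-0.83) and Grik5 (-0.73) in mDA at 8 months are the called points of the 4 panels, and genes near 0 counts have wide bars.

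In 5HT neurons no member was called at either age. At 4 months it was 0 of 41 (5 with an unadjusted p under 0.05), beside 0.0128% of 15633 genes, and at 8 months 0 of 41 (2 unadjusted), beside 0.397%. With 4 libraries a group, these comparisons were less precise than those in mDA, with a biological coefficient of variation of 0.546 against 0.403. At 8 months, where 6.5% of all genes did not overlap between the groups, the libraries did not overlap for 3 members. Gria4 was at 356, 246, 229 and 306 CPM in mutants and at 533, 445, 428 and 548 CPM in wt. All mutants lay below all wt, and the change was -0.81 (SE 0.20, edgeR adjusted p = 0.0875). DESeq2 called it (-0.80, adjusted p = 0.0122), and so did edgeR without mutant S425 or S427 of 4 months (adjusted p = 0.0481 and 0.0434). The Gria4 share of AMPA subunit RNA per kb was 27.8% to 37.1% in these mutants and 43.6% to 48.1% in wt.

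Grin2c was at 5.72, 4.34, 3.81 and 4.81 CPM in 8-month 5HT mutants and at 0.624, 0.542, 0.764 and 0 CPM in wt. The mutants were all higher, at 23 to 33 counts a library against 0 to 5, and the change of 3.61 was not called by edgeR (adjusted p = 0.355) but by DESeq2 (3.67, adjusted p = 0.0243). Grm7 was at 64.3, 63.3, 77.3 and 78.02 CPM in mutants and 81.8, 111, 89.6 and 91.3 CPM in wt. The mutants were lower without overlap, by -0.42 on the log2 scale, which was not called (adjusted p = 0.9997). Beside these values, serotonergic markers summed to 1282 to 1676 CPM in mutants and 5524 to 7131 CPM in wt, with 3 of 10 called lower, and GABA neuron markers to 614 to 779 and 309 to 427.3 CPM, with 2 of 7 tested called higher and 1 of the 8 at 0 in every wt library. Immediate early genes summed to 211 to 399 CPM in mutants and 88.2 to 179.7 CPM in wt, with 0 of 13 tested called. Their part was not tested.

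**Figure D5:**
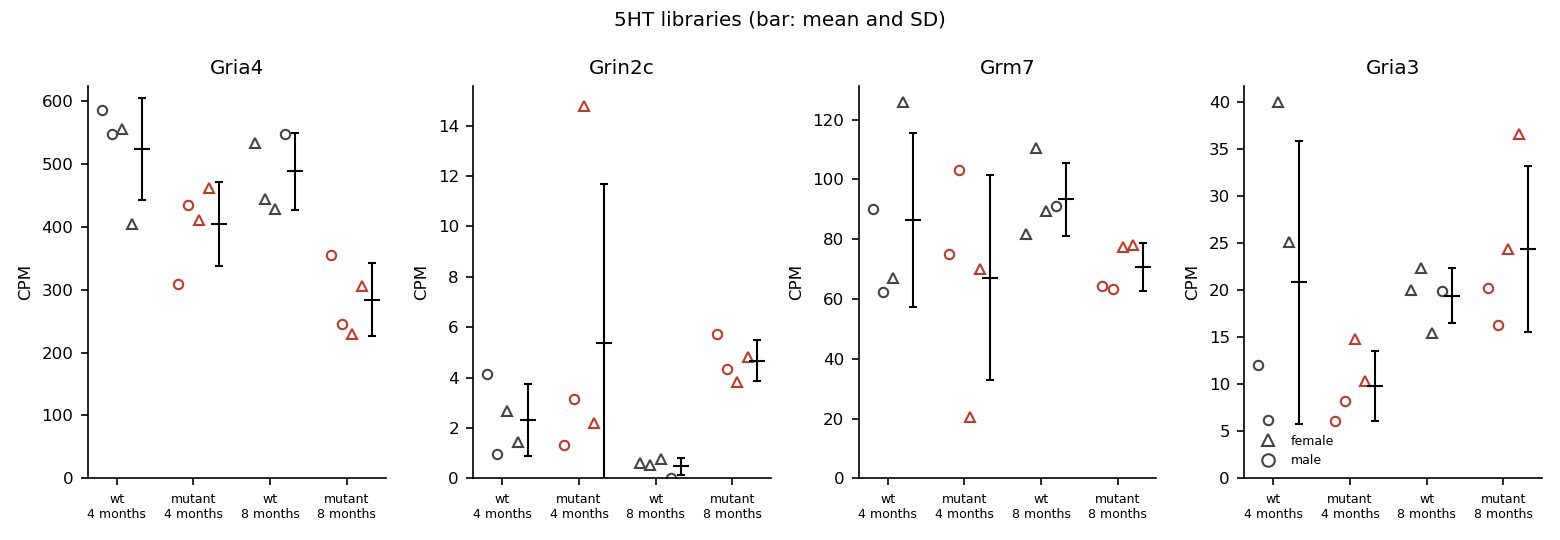
CPM of Gria4, Grin2c, Grm7 and Gria3 in each 5HT library, by genotype and age, with triangles for females, circles for males, wt in grey, mutants in red, and the mean and SD of each group. At 8 months Gria4 and Grm7 lie lower and Grin2c higher in mutants without overlap, and Gria3 overlaps.

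At 4 months the 5HT groups did not overlap for Gria2, Gabrb2 and Gabrg1, all lower in mutants, beside 2.74% of all genes in either direction. Gria2 was at 762, 892, 855 and 739 CPM in mutants and at 937, 1002, 911 and 1042 CPM in wt. The gap was small, a log2 change of -0.25 that was not called. Gabrb2 changed by -0.69 and Gabrg1 by -0.63, neither called. Grm5 had the smallest unadjusted p of the members, at 23.2, 18.4, 11.99 and 20.5 CPM in mutants and 63.2, 17.2, 35.9 and 51.9 CPM in wt, a change of -1.16 (edgeR adjusted p = 0.554). One wt library fell among the mutants. The effect in 5HT did not differ between the ages for any member by the test (0 of 41, 3 unadjusted, beside 0.0128% of genes).

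The effect of the mutation at 8 months was also tested for a difference between the cell types, in a fit of all 51 libraries. Of 42 members 0 were called (8 with an unadjusted p under 0.05), beside 0.179% of 18386 genes. Gria3 came closest, with -1.26 (SE 0.31, edgeR adjusted p = 0.0776). In 5HT it stood at 20.3, 16.3, 24.4 and 36.6 CPM in mutants and 19.97, 22.4, 15.4 and 19.9 CPM in wt, a change of 0.44 that was not called. DESeq2 called the difference (-1.31, adjusted p = 0.00898), as did edgeR without mDA mutant D161 (-1.40, adjusted p = 0.0143) or 5HT wt S385 (-1.45, adjusted p = 0.0400). Gria4 differed by 0.68 (adjusted p = 0.454), opposite in sign to Gria3.

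Proteins that build the synapse around these receptors were read from lists taken from textbook roles. In mDA at 8 months, where 4.32% of all genes were called, 1 of 16 AMPA and kainate auxiliary subunits rose (Cacng5, a TARP that modulates AMPA receptor gating, 30.9 ± 11.6 against 13.5 ± 7.4 CPM, 1.29, edgeR adjusted p = 0.0101) and 0 fell. Among 20 excitatory scaffolds 1 fell, Grip2, a PDZ protein that binds GluA2 and GluA3. Its level was 887 ± 219.9 CPM in wt and 339 ± 50 CPM in mutants, a change of -1.44 (edgeR adjusted p = 3.17e-09). Of 13 inhibitory scaffold and GABA-B accessory genes 0 were called. In 5HT at 8 months Grip2 stood at 542 ± 64 CPM in mutants and 892 ± 152 in wt, and it was not called. The median changes of these 3 lists in mDA, 0.27, -0.12 and -0.01, stood beside 0.02 for all genes tested.

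Genes that make and carry the transmitters were read in the same manner. Of 10 genes for GABA and glycine synthesis and transport, 4 rose in mDA at 8 months and 0 fell, beside the 4.32% of all genes called there. Slc6a5, the glycine transporter of glycinergic neurons, averaged 1.15 ± 1.08 CPM in wt against 92.8 ± 34.8 CPM in mutants (6.09, edgeR adjusted p = 1.62e-12). Gad1, which makes GABA, was at 286 ± 55 and 44.3 ± 19.7 CPM (2.76, adjusted p = 6.85e-12), and Slc32a1, the vesicular transporter of both, at 61.5 ± 10.5 and 18.6 ± 5.7 CPM (1.88, adjusted p = 3.53e-07). In 5HT at 8 months, where 0.397% of all genes were called, 2 of the 10 rose, Slc32a1 (2.15, adjusted p = 0.0128) and Slc6a5 (2.98, adjusted p = 0.0149). At 4 months 1 rose in mDA (1.17% of all genes were called), Gad1 (0.79, adjusted p = 0.0178), and 0 were called in 5HT. Among genes for glutamate transport and metabolism, the glutamate uptake gene Slc1a2 rose in mDA at 8 months (0.50, edgeR adjusted p = 0.0288). Slc1a2 is also on the astrocyte marker list read above, and the part of astrocytes in its value was not tested.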

How the data were processed

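RNA of FACS-sorted neurons was read by Smart-seq2, per the labels' protocols. The deposited table holds raw read counts for every gene in 51 libraries. STAR 2.7.0a and mm10 (GRCm38) are named in the submitters' processing notes. No source used here names the counting tool or its use of strand. Reads were counted without molecular tags, and the floor of 3 counts therefore covers counting error only. The reporter row was kept out of library sizes and tests (at most 0.00294% of a library). There were 0 identical columns, and replicates differed beyond counting noise (chi-square per degree of freedom 6.97 or more).

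Groups, sequencing sets and sex came from the labels, and no label pairs wt with mutant animals. The deposited counts went into edgeR 4.0.16 under R 4.3.3 (TMM scaling, genes kept by filterByExpr on groups at 10 counts, robust quasi-likelihood test), with Benjamini-Hochberg adjustment over all genes tested. The 35 mDA libraries shared a fit that had sex and, inside each age, sequencing set as terms. The 16 5HT libraries and the 25 wt libraries were fitted with sex, and all 51 for the difference between cell types. Each SE is the size of the log2 fold change over the root of its F statistic. Levels per kb used the mean length of annotated transcripts (GENCODE M21 through RefSeq accessions), and coordinates were matched by symbol for 22460 of 24564 genes (91.4%). The fits were tested on simulated data. Alternatives were RLE scaling, no count filter, DESeq2 1.42.0, no sex or set term, single sets, and leaving out each library.

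The members and lists were chosen with earlier results of these data known. Named were members called in any comparison, the 5 with the smallest p on each side between wt cell types, the highest per kb in each family, up to 3 called genes per other list, and marker sums; others named were chosen after their values were seen. Results for some genes of the other lists are not reported here.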

Additional observations from a re-analysis of the deposited data

Results flagged for a closer look

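Single libraries far from the rest of their group were looked for in all 42 members over the 8 groups, 336 pairs of a gene and a group, with Dixon's criterion at 95%, by which chance picks out about 1 in 20. It picked out 30, given here in CPM with the range of the rest of the group.

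In 5HT mutants at 4 months, S427 held 9.99 of Grik3 (0.494 to 0.938 in the others), 14.8 of Grin2c (1.32 to 3.17), 4.8 of Gabrg3 (0.824 to 1.41) and 4.4 of Gabra6 (0), and S426 held 0.186 of Gabra5 (12.4 to 13.7). In 5HT wt at 4 months, S369 held 113 of Grik5 (22.3 to 34.9) and 47.7 of Gabrb1 (95.6 to 104), and S367 held 51.6 of Gabra6 (0 to 0.179) and 0.624 of Grin3b (0). In 5HT wt at 8 months, S381 held 22.7 of Grik3 (3.36 to 5.77) and 12.3 of Gabra5 (3.43 to 4.9), and S385 held 35.5 of Gabrg1 (9.57 to 12.5) and 135 of Glrb (166 to 168). In 5HT mutants at 8 months, S443 held 0.347 of Gabra6 (0), from 2 counts, which is under the floor of 3. The Grin3b value of S367 rested on 3 counts. Where every other library of a group is at 0, any count meets the criterion.

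In mDA wt at 4 months, C240 held 10.4 of Grin2a (23.1 to 35.1) and D296 held 4.41 of Gabra6 (0 to 2). In mDA mutants at 4 months, D238 held 4.95 of Gabra6 (0 to 1.23). In mDA wt at 8 months, D147 held 17.4 of Grin3a (52.5 to 74.3), 6.4 of Gabrd (0 to 2.92) and 17.6 of Glra1 (2.63 to 9.61), C45 held 8.2 of Grin2d (3.83 to 5.51), C250 held 18 of Grm6 (0 to 5.93) and D107 held 7.54 of Gabre (0 to 2.66). In mDA mutants at 8 months, D175 held 82.6 of Grik1 (24.9 to 47.6), 62.3 of Gabra2 (30.9 to 44.2) and 28.6 of Gabra5 (5.41 to 13.6), D170 held 234 of Gabrb2 (100 to 155) and 48.1 of Glra2 (16.4 to 29.6), D176 held 2.93 of Grm6 (0 to 1.36), and C42 held 24.4 of Grm7 (48.4 to 66.3).

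The genotype effect in mDA neurons differed between 8 and 4 months, by the test of the difference itself (edgeR), for Gria3 (-0.877, SE 0.184, adjusted p = 0.00386), Grik5 (-1.23, SE 0.28, adjusted p = 0.00658) and Gabra3 (1.08, SE 0.27, adjusted p = 0.0123). None was called without the sex term, without the 6 female 4-month mutants (-0.32, -0.42 and 0.76, adjusted p = 0.859, 0.902 and 0.675) or without the 4 set1 4-month mutants.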

How the results depend on the processing

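The count of members called changed as follows. The share of all genes called under each setting is not given, so these counts are not read as results about receptors. DESeq2 called 1 in mDA at 4 months, 4 in mDA at 8 months, 2 in 5HT at 8 months and 1 for the difference between cell types. Within set1 7 were called in mDA at 4 months, and within set2 0 at 8 months. Without the sex term 1 was called in mDA at 8 months and 0 for the difference between ages, and without the set term 1 at 8 months. Without the 6 female 4-month mutants, or without the 4 of set1 (both chosen after seeing the data), 0 were called for that difference. Leaving out 1 library at a time gave 0 to 3 in mDA at 4 months, 1 to 3 at 8 months, 3 to 4 for the difference between ages, 0 to 0 in 5HT at 4 months, 0 to 1 at 8 months, 0 to 0 for the difference between ages in 5HT and for age in either wt type, 0 to 1 for the difference between cell types (8-month libraries only) and 25 to 29 between wt cell types. No result reversed. Without the count filter the median of all genes between wt types was 0.155 in place of 0.031. No paired analysis was possible because the labels pair no wt with mutant animals. Depth limits the lowest members: Gabra6, Gabrd, Gabrg3, Grin2d, Grin3b and Grm6 averaged under 5 CPM in most groups.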
